A study of Mus musculus with 4 samples.

Results

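Core pluripotency genes were followed in the RNA-seq counts of mouse embryonic stem cells (ESCs) with and without the kinase gene Pim3. The members were set by name and comprised Pou5f1 (which encodes OCT4), Sox2, Nanog, Sall4, Utf1, Lin28a and Fgf4, 7 of the 55418 genes in the count table. All 7 had enough counts to be tested, among 18444 tested genes. In ESCs, OCT4 and SOX2 bind DNA side by side and, together with NANOG, hold many genes of the undifferentiated state active, their own genes included. SALL4 belongs to the same network, Utf1 and Fgf4 are textbook targets of the OCT4 and SOX2 pair, and LIN28A is an RNA-binding protein that blocks the maturation of let-7 microRNAs. FGF4 is the growth factor that ESCs secrete themselves and that prepares them for lineage entry through ERK signalling.

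The cells were E14 ESCs, an established mouse line given with the strain name 12910la, and all 4 libraries came from cells kept on gelatin in 15% serum with 10 ng/ml LIF, the cytokine that keeps ESCs undifferentiated. The WT group held 2 biological samples with the wild type genotype. The Pim3-/- group held 2 CRISPR/Cas9 knockout clones, 1 library each, without a rescue. The study shows the mutation sites of its knockout clones. Which clone gave which library is not stated in the sample labels. Differences between the genotypes cannot be told apart from differences between these clones and cultures, and p-values measure only the spread between these 4 libraries. The question was how the expression of the core pluripotency genes differed once Pim3 was knocked out.

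The libraries held 22029427 to 25668307 counts. At least 1 count was found on 24239 and 24696 genes in WT and on 27383 and 27508 in Pim3-/- libraries. Pim3 itself had 4392 and 4953 counts in WT and 4970 and 4804 counts in the libraries labelled Pim3-/-, with a log2 fold change of -0.27 (standard error SE = 0.17, and adjusted p = 0.251) that turned to 0.19 with library totals and 0.26 with cyclic loess scaling, so its count did not test the labels. Levels are given as CPM, counts per 1000000 counts of the library after scaling with the TMM factors of edgeR, which were 0.8276 and 0.8828 in WT and 1.168 and 1.172 in Pim3-/- libraries. With these factors the median log2 fold change of the 18444 genes was 0.07, and with plain library totals it was 0.52, a shift that applies to each fold change below. Fold changes also ran with the level of a gene, from a median log2 fold change of 0.98 in 2764 genes whose mean log2 CPM was below 0 to -0.70 in the 550 genes above 8. For this reason each member is also set beside its like-level genes, the tested genes whose mean log2 CPM lay within 0.5 of its own. Adjusted p-values are those of the quasi-likelihood test in edgeR, corrected by the Benjamini-Hochberg method across the 18444 genes, and a gene was called higher or lower when the adjusted p was under 0.05.

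With TMM scaling Sall4 was called higher in Pim3-/- ESCs and Pou5f1, Nanog and Utf1 were called lower. Sox2, Fgf4 and Lin28a did not pass the test. Among all tested genes 17.6% were called higher and 16.2% lower. Both Pim3-/- libraries lay above both WT libraries for Sall4, Sox2 and Fgf4, which was so for 38.3% of all tested genes, and below both for Pou5f1, Nanog and Utf1, which was so for 34.2%. With so many genes called, these shares are the measure for 1 and 3 of 7 genes. The median log2 fold change of the 7 genes was -0.29, beside 0.07 for all genes, and it was 0.16 with library totals and 0.15 with cyclic loess scaling, which centres fold changes near 0 at each level.

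**Figure D1:**
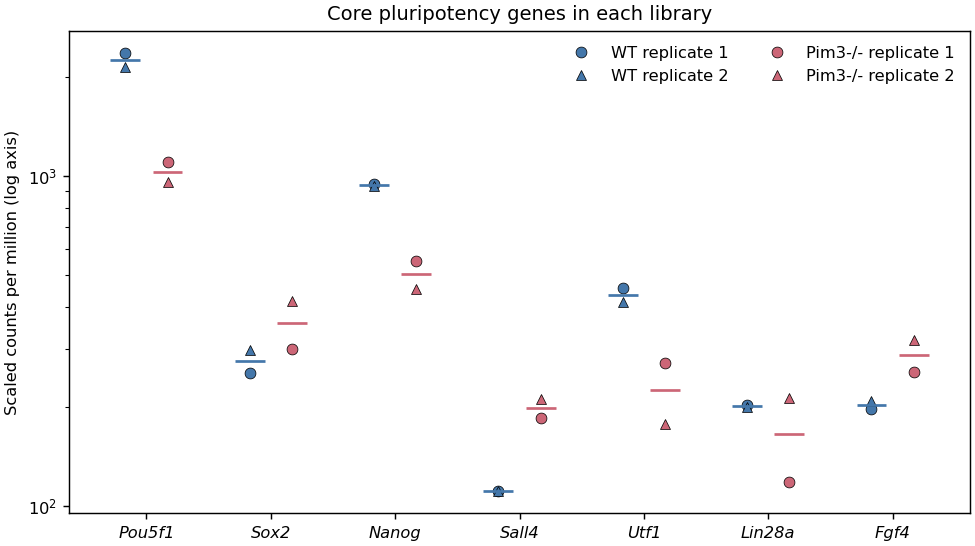
Scaled counts (CPM, log axis) of the 7 genes in each library. Blue marks are WT and red marks Pim3-/- libraries, circles are replicate 1 and triangles replicate 2, and horizontal lines are group means of 2 libraries. With TMM scaling the groups do not overlap for 6 genes, for Sox2 only by 297 against 299 CPM. Among all tested genes, 38.3% were higher and 34.2% lower in Pim3-/- libraries without overlap. The Pim3-/- libraries of Lin28a lie on both sides of the WT pair.

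The 250 bases before the start site are shown for Nanog, Pou5f1 and Utf1, whose counts fell with TMM scaling, and for Sox2, whose count did not, to set side by side how often the site of the OCT4 and SOX2 pair occurs in them. Start sites and sequences are those of RefSeq on GRCm38.p6, written along the gene's strand, and 6 of the 7 genes had an entry, Sall4 being the other. RefSeq starts differ in part from the GENCODE gene positions given below. The windows of Utf1 and Pou5f1 reach into those positions, and the window of Sox2 ends some distance before them. Pou5f1 and Nanog each had 2 RefSeq starts, and the one listed first was used. Capitals mark matches, on either strand, to the core of the OCT-SOX composite site TTGTNATGC and to the GC box GGGCGG, a motif of Sp-family factors that was added after the values were seen. The windows are chr6:122707239-122707488 for Nanog, chr17:35505782-35506031 for Pou5f1, chr7:139943606-139943855 for Utf1 and chr3:34649745-34649994 for Sox2, all on the plus strand.
Nanog: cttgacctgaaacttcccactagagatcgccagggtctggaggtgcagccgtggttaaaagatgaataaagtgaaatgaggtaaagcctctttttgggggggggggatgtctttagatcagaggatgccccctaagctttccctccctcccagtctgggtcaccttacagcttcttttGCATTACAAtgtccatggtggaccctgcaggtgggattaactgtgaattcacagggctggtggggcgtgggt
Pou5f1: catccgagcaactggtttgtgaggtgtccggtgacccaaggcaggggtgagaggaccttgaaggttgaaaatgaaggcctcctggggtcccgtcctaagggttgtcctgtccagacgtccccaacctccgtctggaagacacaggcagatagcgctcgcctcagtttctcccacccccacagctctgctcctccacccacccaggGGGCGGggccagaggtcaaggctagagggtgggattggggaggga
Utf1: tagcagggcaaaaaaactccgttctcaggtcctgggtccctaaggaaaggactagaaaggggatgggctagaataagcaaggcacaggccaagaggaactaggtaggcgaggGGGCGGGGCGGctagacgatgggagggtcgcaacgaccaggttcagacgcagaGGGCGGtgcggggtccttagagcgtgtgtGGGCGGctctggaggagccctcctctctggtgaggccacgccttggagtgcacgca
Sox2: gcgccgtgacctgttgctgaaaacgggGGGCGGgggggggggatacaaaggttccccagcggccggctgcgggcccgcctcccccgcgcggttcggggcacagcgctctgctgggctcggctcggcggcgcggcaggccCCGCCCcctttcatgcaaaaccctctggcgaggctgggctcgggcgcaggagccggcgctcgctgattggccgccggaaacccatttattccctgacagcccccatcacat

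The composite core was found in Nanog, as GCATTACAA on the opposite strand from 72 to 64 bases before the start, and in 0.648% of the 32851 RefSeq promoter windows of that length. The windows of Pou5f1, Utf1, Sox2, Lin28a and Fgf4 did not hold these letters. The octamer ATGCAAAT, the POU-factor site, was in none of the 6 windows and in 1.60% of all promoters. The GC box occurred 4 times in Utf1, with a pair overlapping by 1 base, 2 times each in Sox2 and Fgf4 and once in Pou5f1, and it was present in 32.7% of all promoters. The GC content was 52.0% for Nanog, 61.6% for Utf1, 62.0% for Pou5f1 and 72.0% for Sox2, beside a median of 52.4% over all promoters. Each match is a description of letters in this window.

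Pou5f1 encodes OCT4, the POU-domain factor without which the inner cell mass does not become pluripotent (ENSMUSG00000024406.16, chr17:35506018-35510772, plus strand). Its counts were 45110 and 48413 in WT and 29466 and 24659 in Pim3-/- libraries, or 2356, 2138, 1104 and 957 CPM. Both WT libraries were high, both Pim3-/- libraries were low, and the groups did not overlap. The mean fell from 2247 ± 154 CPM (SD, n = 2) to 1030.3 ± 104 CPM (SD, n = 2), which was 45.9% of WT, with a log2 fold change of -1.12 (SE 0.22, adjusted p = 0.00993). The 70 like-level genes had a median log2 fold change of -0.87, and 8.57% of them were lower than Pou5f1. The gene passed with library totals at -0.67 (adjusted p = 0.0262) and did not pass with cyclic loess scaling at -0.26 (adjusted p = 0.256). An antisense model, Gm19553, overlaps Pou5f1 and carried 31357 and 33082 counts in WT and 19752 and 16788 counts in Pim3-/- libraries, with a log2 fold change of -1.16 (adjusted p = 0.00839). Whether the counting used strand is not given in the sources used here, so reads of Pou5f1 and of Gm19553 cannot be told apart and the level of Pou5f1 is uncertain. By qPCR the study reported that Pou5f1 and Sox2 expression was not disrupted in its Pim3-/- ESCs. The legend of that qPCR names no reference transcript, and its scale is not that of CPM. Per Gapdh and per Actb counts, Pou5f1 in these libraries stood at 0.683 and 0.778 of WT. The cause of the difference for Pou5f1 was not tested.

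Nanog encodes the homeodomain factor that supports self-renewal when LIF is limiting (chr6:122707489-122714633, plus strand). It had 18099 and 21146 counts in WT and 14747 and 11763 counts in Pim3-/- libraries, or 945, 934, 553 and 456 CPM. The WT libraries were nearly equal, and both Pim3-/- libraries were lower, so the groups did not overlap. The mean of 939 ± 7.95 CPM (SD, n = 2) fell to 504 ± 68.0 CPM (SD, n = 2), 53.7% of WT, with a log2 fold change of -0.90 (SE 0.20, adjusted p = 0.0155). The median log2 fold change of its 117 like-level genes was -0.66, and 32.5% of them were lower than Nanog. Nanog did not pass with library totals at -0.45 (adjusted p = 0.0992) or with cyclic loess scaling at -0.17 (adjusted p = 0.458). The study itself reported the opposite direction, with Nanog upregulated in its Pim3-/- ESCs by qPCR and western blot. The cause of this difference was not tested.

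Utf1 encodes a chromatin-associated transcriptional coactivator restricted to pluripotent and germ cells (chr7:139943789-139945112, plus strand). It had 8762 and 9431 counts in WT and 7233 and 4552 counts in Pim3-/- libraries, or 458, 416, 271 and 177 CPM. The groups did not overlap, and Pim3-/- replicate 2 was the lowest library, at 0.652 times the level of replicate 1. The mean fell from 437 ± 29.0 CPM (SD, n = 2) to 224 ± 66.8 CPM (SD, n = 2), 51.2% of WT, with a log2 fold change of -0.97 (SE 0.24, adjusted p = 0.0209). Its 395 like-level genes had a median log2 fold change of -0.63, and 29.9% were lower than Utf1. As with Nanog, the call was lost with library totals at -0.51 (adjusted p = 0.107) and with cyclic loess scaling at -0.40 (adjusted p = 0.173).

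Sall4, a zinc-finger factor that binds the NuRD deacetylase complex and is needed for ESC self-renewal, moved the other way (chr2:168748332-168767943, minus strand). It had 2127 and 2507 counts in WT and 4949 and 5450 counts in Pim3-/- libraries, or 111, 111, 185 and 211 CPM. The WT libraries were equal to within their rounding and both Pim3-/- libraries were higher. The mean rose from 111 ± 0.25 CPM (SD, n = 2) to 198 ± 18.4 CPM (SD, n = 2), 1.79-fold, with a log2 fold change of 0.84 (SE 0.17, adjusted p = 0.0116). Among 990 like-level genes the median log2 fold change was -0.48, and 97.6% were lower than Sall4. The call was kept under each scaling, with 1.29 for library totals and 1.30 for cyclic loess. Gm14261, a transcript model on the opposite strand, overlaps Sall4 but carried 14 and 34 counts in WT and 128 and 105 counts in Pim3-/- libraries.

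Sox2 encodes the HMG-box partner of OCT4 (chr3:34650405-34652461, plus strand). It had 4849 and 6734 counts in WT and 7968 and 10760 counts in Pim3-/- libraries, or 253, 297, 299 and 417 CPM. The groups did not overlap, but WT replicate 2 and Pim3-/- replicate 1 were almost level, and Pim3-/- replicate 2 stood above the other 3 libraries. The means were 275 ± 31.2 CPM (SD, n = 2) and 358 ± 84.0 CPM (SD, n = 2), and the log2 fold change was 0.38 with a 95% interval of -0.14 to 0.90 (adjusted p = 0.218). Of the 390 like-level genes, with a median log2 fold change of -0.63, 94.9% were lower than Sox2. With library totals the log2 fold change was 0.83 (adjusted p = 0.0218) and with cyclic loess 0.96 (adjusted p = 0.0254), so Sox2 passed under both. The long transcript Sox2ot, which spans Sox2 on the same strand, carried 38 and 63 counts in Pim3-/- and 19 and 26 in WT libraries, few beside those of Sox2.

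Fgf4 encodes the secreted ligand of FGF receptors (chr7:144847367-144865243, plus strand). It had 3782 and 4709 counts in WT and 6813 and 8195 counts in Pim3-/- libraries, or 197, 208, 255 and 318 CPM. Both Pim3-/- libraries were above both WT libraries. The means were 203 ± 7.40 CPM (SD, n = 2) and 287 ± 44.3 CPM (SD, n = 2), with a log2 fold change of 0.50, a 95% interval of 0.06 to 0.94 and an adjusted p of 0.078. The 528 like-level genes had a median log2 fold change of -0.63, and 95.5% of them were lower than Fgf4. Fgf4 passed with library totals at 0.95 (adjusted p = 0.00769) and with cyclic loess at 1.04 (adjusted p = 0.0134).

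Lin28a (chr4:134003330-134018841, minus strand) was the member whose Pim3-/- libraries differed most. It had 3893 and 4518 counts in WT and 3153 and 5455 counts in Pim3-/- libraries, or 203, 199.5, 118 and 212 CPM. Pim3-/- replicate 1 was below the WT pair and replicate 2 above it, 1.79 times replicate 1, so the groups overlapped. Of its 775 like-level genes 66.1% had a lower fold change than Lin28a. A smaller gap between the Pim3-/- libraries was seen in 93.3% of them. The means were 201 ± 2.66 CPM (SD, n = 2) and 165 ± 66.1 CPM (SD, n = 2), and the log2 fold change of -0.29 had a 95% interval of -0.92 to 0.34 (adjusted p = 0.432), with the sign reversed at 0.16 for library totals and 0.15 for cyclic loess. Gm13061, a transcript model on the opposite strand that overlaps Lin28a, carried 172 and 280 counts in Pim3-/- and 103 and 178 in WT libraries, high in replicate 2 of each group.

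**Figure D2:**
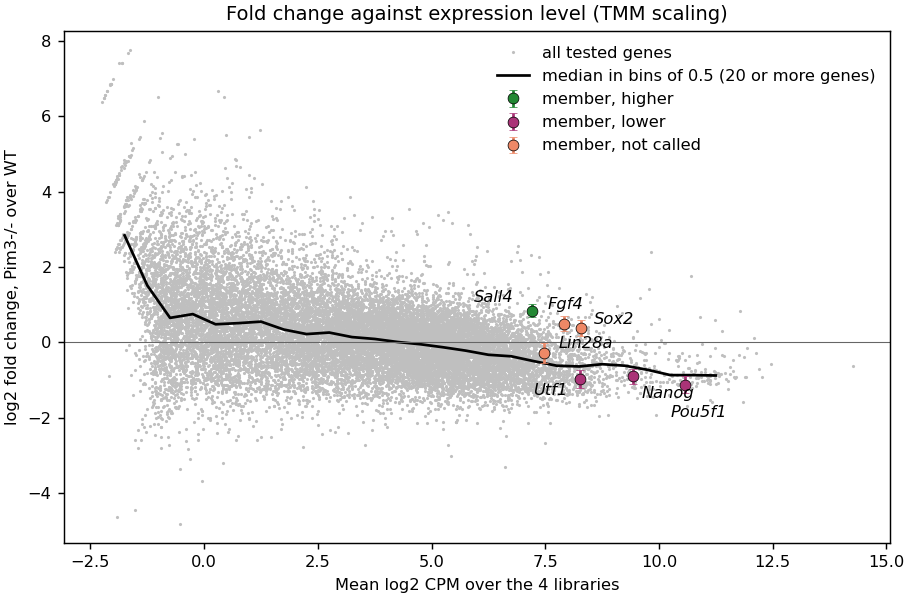
Log2 fold change of Pim3-/- over WT against mean log2 CPM over 4 libraries, with TMM scaling. Grey points are the 18444 tested genes, the black line is their median in bins of 0.5 log2 CPM, and coloured points are the 7 genes with standard errors. Sall4, Fgf4 and Sox2 lie above the line, whose own slope runs downwards. Of their like-level genes, 8.57% were lower than Pou5f1, 32.5% lower than Nanog and 29.9% lower than Utf1.

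**Figure D3:**
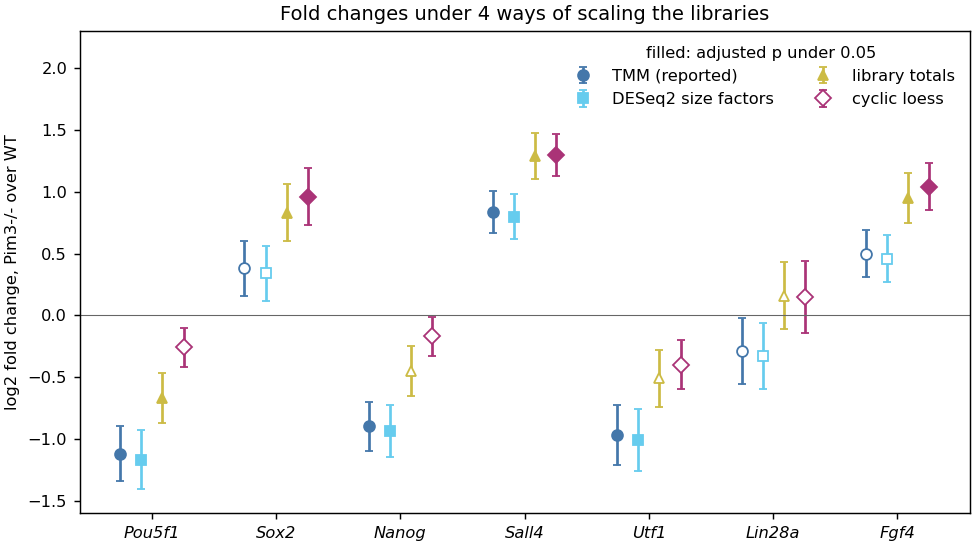
Log2 fold changes with standard errors for the 7 genes under 4 scalings, from 2 libraries in each group. Filled marks have an adjusted p under 0.05. Sall4 is filled under all 4, Pou5f1 under 3, and Nanog and Utf1 under 2, whereas Sox2 and Fgf4 are filled only with library totals and cyclic loess, and Lin28a changes sign.

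The calls also depended on which libraries were kept. Without WT replicate 1 or without WT replicate 2, the edgeR test called none of the 7 genes, although 4 had an unadjusted p under 0.05 in each case. The log2 fold changes themselves then stayed between -1.21 and -1.03 for Pou5f1 and between 0.83 and 0.87 for Sall4. Without Pim3-/- replicate 1, Sox2 passed at 0.60 (adjusted p = 2.9e-04) and Fgf4 at 0.65 (adjusted p = 4.6e-05). Without Pim3-/- replicate 2, Lin28a was called lower at -0.77 (adjusted p = 2.6e-06) and Fgf4 higher at 0.33 (adjusted p = 0.0478). In each of these fits the group with a single library was assumed to vary like the other group.

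Per kilobase of exon, Pou5f1 had the highest level of the 7 genes in WT, at 999.5 CPM per kb ± 68.6 (SD, n = 2). Nanog followed at 419.5, Utf1 at 356, Sox2 at 134, Fgf4 at 63.4, Lin28a at 50.4 and Sall4 at 20.1 CPM per kb. No neighbours in this order overlapped between the WT libraries. The order was the same in Pim3-/- libraries, but Nanog at 225 and Utf1 at 182 CPM per kb, Utf1 and Sox2 at 174, and Lin28a at 41.3 and Sall4 at 35.9 did not differ beyond their spread. The order held with the longest transcript in place of all exons.

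Ratios of counts between members do not depend on how the libraries are scaled. Of the 21 pairs, 16 had ratios that did not overlap between the groups, as was so for 70.4% of the pairs among 18278 tested genes with a count in every library, a share close to that of the members. The count of Pou5f1 was 21.2 and 19.3 times that of Sall4 in WT and 5.95 and 4.52 times in Pim3-/- libraries, and the ratio of the group geometric means was 0.256. Pou5f1 was 9.30 and 7.19 times Sox2 in WT and 3.70 and 2.29 times in Pim3-/- libraries. Of the pairs among the genes that fell, Pou5f1 to Nanog did not overlap, at 2.49 and 2.29 in WT and 2.00 and 2.10 in Pim3-/- libraries, and Nanog to Utf1 did. The Pou5f1 to Utf1 ratio was 5.15 and 5.13 in WT and 4.07 and 5.42 in Pim3-/- libraries, and the groups overlapped. The Sox2 to Fgf4 ratio of 1.28 and 1.43 against 1.17 and 1.31 overlapped as well, whereas Sox2 to Sall4 (2.28 and 2.69 against 1.61 and 1.97) and Sall4 to Fgf4 (0.562 and 0.532 against 0.726 and 0.665) did not. With 2 libraries on each side the smallest p of an exact permutation test (two-sided) is 0.333, so ratios were not tested.

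Against single reference transcripts Pou5f1 and Sall4 kept their directions, and the groups of Nanog and Utf1 overlapped on the Actb scale. Nanog had 133 and 139 counts per 1000 Gapdh counts in WT and 106 and 110.3 in Pim3-/- libraries, which did not overlap. Per 1000 Actb counts it had 706 and 689.8 in WT and 761 and 528 in Pim3-/- libraries, which did. The geometric mean of Utf1 was 0.747 of WT per Gapdh, without overlap, and 0.851 of WT per Actb, with overlap. Pou5f1 was lower in both Pim3-/- libraries on both scales, with geometric means at 0.683 of WT per Gapdh and 0.778 per Actb. Sall4 was higher on both, at 2.66 and 3.03 times WT. So were Sox2, at 1.92 and 2.19, and Fgf4, at 2.1 and 2.39, without overlap. Lin28a overlapped per Gapdh (1.17) and not per Actb (1.33). Pim3, at a log2 fold change of -0.27 with TMM scaling, stood at 1.24 times WT per Gapdh and 1.41 per Actb. Gapdh and Actb thus fell further than Pim3 with TMM scaling, which raises each value on these scales.

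All 7 genes together took 0.374% and 0.380% of the counts in WT and 0.325% and 0.322% in Pim3-/- libraries. Within that sum, Pou5f1, Nanog and Utf1 made up 83.1% and 81.1% in WT, and 69.2% and 57.8% in Pim3-/- libraries. In bulk RNA, fewer cells expressing a gene and less RNA of it per cell cannot be told apart.

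**Figure D4:**
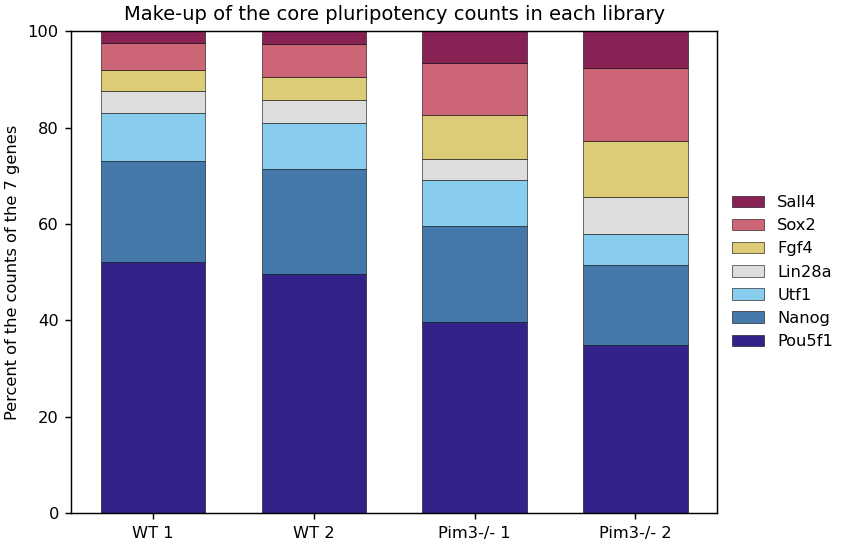
Share of each gene in the summed counts of the 7 genes, in percent, for each library as 1 stacked bar. Pou5f1, Nanog and Utf1, in blue shades at the bottom, take 83.1% and 81.1% in the WT bars and 69.2% and 57.8% in the Pim3-/- bars.

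The neighbourhood of each gene was examined in the same test, with positions from GENCODE M21 on GRCm38. Next to Pou5f1, Tcf19 at 1.96 kb had a log2 fold change of -1.18 (adjusted p = 0.012), and H2-Q10 on the other side rose by 2.31. Slc2a3, the glucose transporter GLUT3, lies 13.2 kb from Nanog and rose by 1.77 on the log2 scale (adjusted p = 0.00457) while Nanog fell. Atp9a at 5.92 kb from Sall4 rose by 0.90. Fgf3, another FGF ligand gene 2.93 kb from Fgf4, rose by 2.36 (adjusted p = 0.00562). The nearest tested gene on one side of Sox2, Dnajc19, was 569 kb away and had a log2 fold change of -1.10. Within 500 kb, the tested genes called higher and lower were 8 and 15 of 65 around Pou5f1, 2 and 1 of 15 around Nanog, 2 and 4 of 13 around Utf1, and 3 and 10 of 32 around Lin28a. They were 4 and 0 of 8 around Sall4, 5 and 0 of 14 around Fgf4 and 0 and 0 of 4 around Sox2, beside 17.6% and 16.2% of all tested genes. On the chromosomes of the members the median log2 fold changes were between -0.03 and 0.10.

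Further lists of pluripotency genes, chosen with earlier results of these data known, placed the 7 genes among their neighbours in the network, and each count below is to be read beside the 17.6% of all tested genes called higher and the 16.2% called lower. Of 12 naive-state factors, 2 were called higher and 2 lower, which is near those shares, with a median log2 fold change of 0.03. The higher ones were Tbx3 at 1.51 and Klf4 at 1.44, and the lower ones Gbx2 at -0.73 and Nr5a2 at -0.51. Esrrb, a partner of NANOG, had 486 and 528 CPM in WT and 522 and 516 CPM in Pim3-/- libraries.

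Of 20 other ESC-enriched genes 3 were called higher and 7 lower, with a median of -0.53. Dppa3, also known as Stella, fell the furthest on the list at -2.44, followed by Dppa4 at -1.22 and Dppa5a at -0.97. Dppa5a lost its call with library totals (adjusted p = 0.072), with the replicate number as a block (adjusted p = 0.0655) and with cyclic loess scaling, where its value was 0.01. With library totals 2 genes of the list, Dppa3 and Dppa4, were still called lower. The genes called higher were ligands and antagonists of NODAL signalling, with Lefty1 at 2.17, Lefty2 at 0.78 and Nodal at 0.78. Without Pim3-/- replicate 2, Lefty1 was at 1.18 and Lefty2 at 0.49, and without Pim3-/- replicate 1, Nodal was at 0.49.

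Of 10 tested formative and primed genes 5 were called higher and 2 lower, and the median log2 fold change was 1.01. Lef1, the WNT effector, was at 2.87, Sox3 at 2.49 and Zic2 at 1.85. Lef1 had 19.6 and 5.97 CPM in Pim3-/- replicates 1 and 2, and its value was 1.78 when replicate 1 was left out. The de novo methyltransferase gene Dnmt3b and the POU factor gene Pou3f1 (OCT6) were lower, at -1.30 and -1.04. Fgf5, the standard mark of primed cells, had at most 3 counts in every library.

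**Figure D5:**
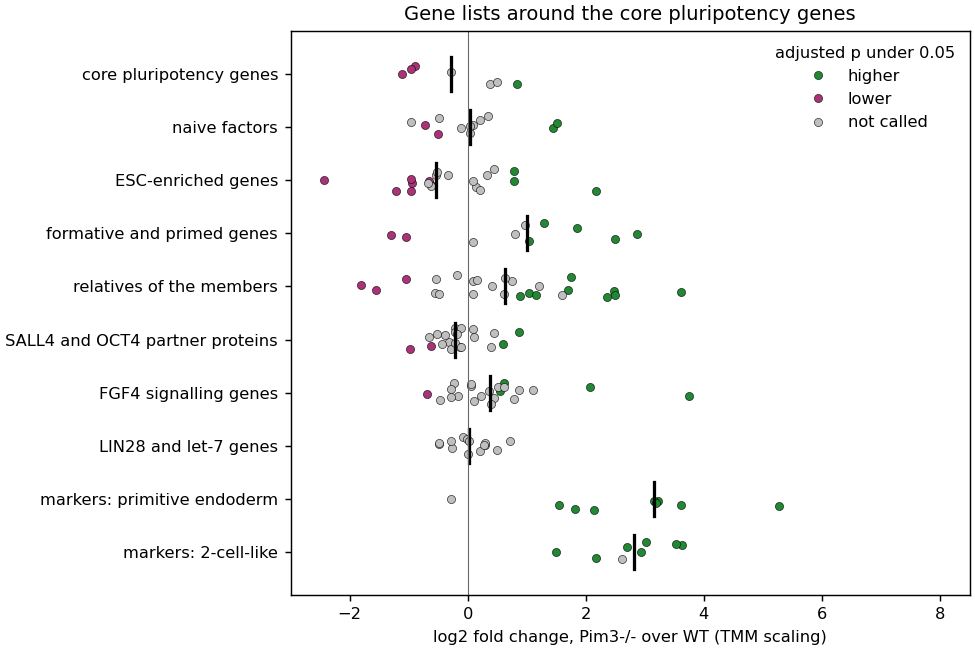
Log2 fold change of Pim3-/- over WT (TMM scaling) for the tested genes of each list, 1 point per gene, with black bars at the list medians. Green points were called higher, purple points lower and grey points neither. The 7 core genes spread from -1.12 to 0.84, and the formative and primed genes have a median of 1.01. With library totals all points would move up by the shift given in the text.

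Among relatives of the members by gene family, 25 of 28 were tested, 9 were called higher and 3 lower, with a median of 0.63. Sox17, Sox3 and Pou2f2 had log2 fold changes of 3.61, 2.49 and 2.48, each from under 2 CPM in WT, while Fgf17 (-1.81), Sox15 (-1.56) and Pou3f1 (-1.04) were lower. Sox15, a close relative of Sox2 that ESCs express, had 48.7 and 43.1 CPM in WT and 15.2 and 15.9 CPM in Pim3-/- libraries, so both Pim3-/- libraries were low. Without Pim3-/- replicate 1 the log2 fold change of Sox17 was 1.41, and its counts were 85 and 10 in Pim3-/- replicates 1 and 2.

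Of 21 genes for proteins that bind SALL4 or OCT4, 2 were called higher and 2 lower, with a median of -0.21. Arid1a, a subunit of the BAF remodeller, was at 0.87 and Mta1, a NuRD subunit, at 0.60. Hdac1, the NuRD deacetylase, was at -0.98 and Rbbp7 at -0.63, so NuRD genes were found on both sides.

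Of 22 genes of FGF4 signalling 4 were called higher, near the share of all genes, and 1 lower, with a median of 0.38. The receptor gene Fgfr3 rose by 3.74 from 1.04 and 0.707 CPM in WT to 15.6 and 7.68 CPM in Pim3-/- libraries. Spry4, a feedback inhibitor that ERK signalling induces, rose by 2.07, from 19.5 and 20.6 CPM to 72.5 and 95.6 CPM, and Spred2 rose by 0.62. Spry1 (0.06), Spry2 (0.4), Etv4 (-0.29), Etv5 (0.06), Dusp4 (0.61), Dusp6 (0.79) and Egr1 (1.11) of the same list were not called. Mapk3, which encodes ERK1, had a log2 fold change of -0.69.

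For LIN28A the partners and targets of let-7 control were counted. None of 14 was called by edgeR, where 3 had an unadjusted p under 0.05, and the DESeq2 Wald test called 1. With library totals 5 of the 14 were called higher. Of the genes named from these 7 lists by the size of their change, with library totals Gbx2, Nr5a2, Pou3f1, Dppa5a, Hdac1, Rbbp7 and Mapk3 no longer passed, and with cyclic loess Nr5a2, Dppa5a, Hdac1, Rbbp7, Mapk3 and Sox17 did not. Leaving out either WT library left at most 1 called gene in each list.

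Markers of other cell types moved with the genotype as well. Of 9 tested primitive endoderm markers 8 were called higher. The sum of the list was 401 to 412 CPM in WT and 542 to 569 CPM in Pim3-/- libraries. Sparc, the tested marker that was not called (-0.28), made up most of each sum. It had 359 and 358 CPM in WT and 276 and 314 CPM in Pim3-/- libraries, so the rise in the sum came from other markers. Col4a1, called higher at a log2 fold change of 3.18, had 128 and 135 CPM in Pim3-/- libraries. Gata6 went from 0.574 and 0.839 CPM to 8.99 and 4.34 CPM, and Foxa2 had 5 and 7 counts in Pim3-/- and 0 in either WT library. Of 8 markers of 2-cell-like cells 7 were called higher, and their sum was 14.0 to 18.6 CPM in WT and 46.6 to 167 CPM in Pim3-/- libraries. Of 7 tested trophoblast markers 3 were called higher, with sums of 142 to 144 CPM in WT and 129 to 151 CPM in Pim3-/- libraries. Most of each sum came from Tfap2c, Krt8 and Krt18, which were not called. Neuroectoderm had 1 of 5 called lower, with sums of 132 to 140.2 CPM in WT and 78.2 to 97.6 CPM in Pim3-/- libraries. Most of each sum came from Tubb3, the gene called lower, with 127 and 120.3 CPM in WT and 85.7 and 58.8 CPM in Pim3-/- libraries. Pax6 (-1.11), Sox1 (1.59), Nes (0.78) and Map2 (0.28) were not called. The edgeR test called none of 3 mesoderm and 2 fibroblast markers, with 0 at an unadjusted p under 0.05, and the fibroblast genes Col3a1, Lum, Dcn and Postn had at most 3 counts in every library. Of the 11 ESC markers 1 was called higher and 4 lower, but the list includes all 7 core genes. The gene called higher and 3 of those called lower were core genes, so this count mostly repeats their result. Of the other markers Dppa5a was called lower. Zfp42 (-0.48), Esrrb (0.03) and Tdgf1 (0.33) were not called. The part of these markers in the fold changes of the core genes was not tested.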

How the data were processed

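RNA of 2 WT samples and 2 Pim3-/- clones of E14 ESCs was sequenced as poly(A) libraries, 4 in all. The authors deposited raw counts per gene, without normalization, and these counts were used as deposited. The study's methods name Cutadapt, Hisat2, the mm10 assembly and Ensembl genes, whereas the submitters' processing notes name Trim Galore, STAR, featureCounts and GRCm38. Which of them made the table, the use of strand and the treatment of reads with several locations are not given in the sources used here. The table of transposable elements was not used here.

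The 7 genes and all lists were chosen with earlier results of these data known. The libraries held 22029427 to 25668307 counts, and a count of 0 allows up to 3 counts, 0.112 to 0.157 CPM, for counting error only. Groups were taken from the sample labels, which do not say which clone bears which replicate number. In R 4.3.3, edgeR 4.0.16 and its filterByExpr function, at a minimum count of 10 and a minimum total of 15, kept 18444 of 31418 genes with a count. TMM factors and the quasi-likelihood test of edgeR gave fold changes, with Benjamini-Hochberg adjustment over all tested genes. Alternatives were library totals, DESeq2 1.42.0 size factors and Wald test, cyclic loess with voom of limma 3.58.1, other filters, a replicate block and the omission of each library. Named genes are the 7 members, up to 3 called genes per list and direction, overlapping and nearest called neighbouring genes, 2 genes of like profile per member (mean of at least 10 CPM, Euclidean distance of centred log2 CPM) and Pim3. Esrrb, Gata6, Foxa2, Fgf5, Gapdh, Actb and the silent fibroblast markers were named after their values were seen. So were Sparc, Col4a1, Tfap2c, Krt8, Krt18, Tubb3, Pax6, Sox1, Nes, Map2, Zfp42 and Tdgf1. The same holds for the FGF4 signalling genes Spry1, Spry2, Etv4, Etv5, Dusp4, Dusp6 and Egr1. Positions and exon lengths came from GENCODE M21 and promoter sequences from RefSeq, both GRCm38. Plots were made with matplotlib 3.10.9 under Python 3.11.15.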

Additional observations from a re-analysis of the deposited data

How the results depend on the processing

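With library totals Sox2 (0.83), Fgf4 (0.95) and Lin28a (0.16) moved up on the log2 scale, Nanog (-0.45) and Utf1 (-0.51) lost their calls, 3 of the 7 genes were higher and 1 lower, their median was 0.16, and 6606 of all genes were higher (85.8% of calls, against 52.1% with TMM) and 1092 lower. With cyclic loess and voom, Pou5f1 (-0.26), Nanog (-0.17) and Utf1 (-0.40) lost their calls, Sox2 (0.96) and Fgf4 (1.04) gained them, Lin28a was 0.15, the median 0.15, and 3 genes were higher and 0 lower. The DESeq2 Wald test called the same 4 members as edgeR, with 43.4% of all calls higher. Dppa5a turned to 0.01 with cyclic loess, Gm13061 to -0.05 without Pim3-/- replicate 2 (-0.05 to 0.71 over the omissions of 1 library), and Pim3 to 0.19 with library totals and 0.26 with cyclic loess. The cause was not tested.

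Leaving out 1 library at a time gave -1.23 to -1.03 for Pou5f1, 0.12 to 0.60 for Sox2, -1.04 to -0.77 for Nanog, 0.74 to 0.93 for Sall4, -1.31 to -0.69 for Utf1, -0.77 to 0.07 for Lin28a (0.07 without Pim3-/- replicate 1), 0.33 to 0.65 for Fgf4 and -0.69 to 0.07 for the median. Between 0 and 3 members were higher and 0 to 4 lower, and over all genes 25 to 5383 were higher and 5 to 5139 lower. The low ends came from fits without WT replicate 1, where 83.3% of calls were higher.

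Among the lists, library totals gave 4 naive factors higher and 0 lower, 6 ESC-enriched genes higher and 2 lower, 5 partner genes higher and 0 lower, 14 relatives higher, 1 formative gene lower, 13 FGF4 signalling genes higher and 0 lower, and 5 LIN28 genes higher. Cyclic loess gave 6 and 1 for naive factors, 6 and 3 for ESC-enriched genes, 5 and 0 for partners, 7 and 0 for FGF4 signalling and 5 higher for LIN28 genes. The Wald test gave 1 and 4 for partners and 1 LIN28 gene lower. Without 1 library the counts higher and lower ran from 0 to 3 and 0 to 4 for naive factors, 0 to 7 and 0 to 2 for formative genes, 0 to 4 and 0 to 11 for ESC-enriched genes, 0 to 4 and 0 to 10 for partners, 0 to 11 and 0 to 5 for relatives, 0 to 11 and 0 to 5 for FGF4 signalling, and 0 to 5 and 0 to 3 for LIN28 genes.

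Same-numbered libraries deviated together at a correlation of 0.0196 across genes. The Pim3-/- libraries also differ by clone, so this value cannot decide whether same-numbered libraries shared a batch. The fit with a replicate block kept each member's call (Pou5f1 -1.13, Sall4 0.84), lost those of Dppa5a (adjusted p = 0.0655) and Nr5a2 (adjusted p = 0.0504), and moved the calls over all genes to 3403 higher and 3272 lower. The motif search 5 kb around the start sites was not run.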

Other observations

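For each of the 7 genes, the genes with the most similar profile over the 4 libraries were found among 8903 genes with a mean of at least 10 CPM, as the smallest Euclidean distance between log2 CPM centred on their mean. The nearest to Pou5f1 were Eif4a1, a translation initiation helicase gene, at 0.0295 and Nme6 at 0.0341, and 487 genes lay within 0.25. The nearest to Nanog were Dnajc24 at 0.0149 and Chaf1b, a histone chaperone gene, at 0.0279, with 638 genes within 0.25. Utf1 lay nearest to Tomm34 and Fen1, at 0.0451 and 0.0455. For Sall4 they were Zfp775 at 0.0269 and S1pr2 at 0.0316, for Sox2 Phf3 at 0.034 and Sertad2 at 0.0362, and for Fgf4 Tom1 at 0.0166 and Ttc7b at 0.0199. Lin28a had 136 genes within 0.25, the fewest of the 7. Its nearest, Eif4a2 at 0.00832, had 667 and 651 CPM in WT and 388 and 691 CPM in Pim3-/- libraries, low in the same single library as Lin28a, and Mtdh followed at 0.0504. With 4 libraries such likeness is a description of profiles only.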
